A study of Arabidopsis thaliana with 9 samples.

Results

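Transcript levels of 6 nuclear genes of carbon fixation and photorespiration were followed across 9 arrays of dark-grown Arabidopsis thaliana seedlings. They were RCA (AT2G39730), SBPASE (AT3G55800) and PRK (AT1G32060) of the Calvin cycle, and GLDT (AT1G11860), HPR1 (AT1G68010) and GLYK (AT1G80380) of photorespiration. Members were chosen as the probe sets annotated to 1 of these genes alone, which gave 6 of 22746 probe sets, 1 for each gene, and all 6 passed the filter on low signal. The annotation writes HPR1 as HPR and lists GLDT and GLYK by locus code. The seedlings were whole, 4 days old, of the Col-0 ecotype, and grown at 21 degrees on half-strength salt medium with 1% sucrose, so every genotype had sugar and no light. Wild type, the mutant cop1-4 and the line cop1-4BBX22-GFPox, which carries the cop1-4 allele too, had 3 biological replicates each. Neither the promoter of the BBX22-GFPox construct nor the number of transgenic lines is stated in the sources used here. COP1 and BBX22 were not analysed here, so the labels were not checked against them.

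The Calvin cycle fixes carbon dioxide in the chloroplast: Rubisco carboxylates ribulose bisphosphate, and the remaining enzymes reduce the product and rebuild the acceptor. RCA encodes Rubisco activase, which removes inhibitory sugar phosphates from Rubisco. SBPASE encodes sedoheptulose-bisphosphatase and PRK encodes phosphoribulokinase, both of which act in the regeneration of the acceptor. Photorespiration salvages the phosphoglycolate that Rubisco makes when it takes oxygen, through chloroplast, peroxisome and mitochondrion. GLDT is the aminomethyltransferase (T protein) of the mitochondrial glycine decarboxylase, HPR1 the peroxisomal hydroxypyruvate reductase, and GLYK the glycerate kinase that returns carbon to the Calvin cycle. In wild-type seedlings COP1, part of a ubiquitin ligase, represses photomorphogenesis until light arrives, while the B-box protein BBX22 promotes it.

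The values are array signals on a linear scale, with medians between 147.2 and 189.4 over the 9 arrays. Replicate 1 stood apart in every genotype, correlating with replicates 2 and 3 at 0.816 to 0.926 across probe sets, while replicates 2 and 3 correlated at 0.982 to 0.989. Root markers moved with it: of 9 listed, 2 were measured, the root hair expansins EXPA7 and EXPA18, and their summed signal was 47.0 to 196.3 in the replicate 1 arrays against 553.4 to 1049 in the others. The photosynthetic mesophyll list had 1 of 5 members measured, the photosystem I subunit PSAN, at 2115 to 2561 in wild type. In cop1-4 it stood at 7676 to 23549, and with the construct at 11448 to 16693. Of 6 epidermal and stomatal markers 3 were measured, SPCH, FAMA and MUTE. Their summed signal was 105.3 to 135.8 for wild type, 213.4 to 231.3 for the mutant and 276.3 to 340.4 for the transgenic line. In cop1-4 FAMA lay above all wild-type arrays (110.6 to 199.2 against 31.5 to 95.1), as did 19.2% of all tested probe sets. Its change did not pass the limma test (adjusted p = 0.0644). SPCH overlapped (24.6 to 93.3 against 33.1 to 70.3). With the construct both lay above all wild-type arrays (FAMA 155.6 to 201.7, SPCH 72.5 to 129.9), as did 19.2% of all tested probe sets. There FAMA passed (limma adjusted p = 0.0259) and SPCH did not (0.130). MUTE did not pass the filter on low signal. It stood at 2.1 to 7.6 in wild type, 3.6 to 34.5 in cop1-4 and 2.1 to 47.7 with the construct. Of 5 meristem and leaf primordium markers 2 were measured, with sums between 343.4 and 525.5, and the stem cell marker CLV3 was at or below 9.20 on every array. The part of these differences in the results was not tested, and in RNA from whole seedlings fewer cells of a type and less RNA per cell cannot be told apart.

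The comparison of cop1-4 with wild type asks which transcripts a dark seedling changes when COP1 function is reduced. In the Calvin cycle, RCA and SBPASE rose and PRK did not pass the test. RCA had signals of 4882, 9092 and 7671 in wild-type replicates 1, 2 and 3, and of 33415, 22626 and 21261 in cop1-4. Every cop1-4 array lay above every wild-type array, and replicate 1 was the lowest of the wild type and the highest of the mutant. The means were 7215 ± 2142 and 25767 ± 6658 (SD, n = 3). The fitted log2 change was 1.85, or 3.60-fold on the scale of log2(signal + 24.5), whose offset is a low percentile of all signals (SE 0.29, 95% interval 1.19 to 2.51, limma adjusted p = 0.00339). RCA was the only one of the 6 to be called whichever array was left out (adjusted p at most 0.0149).

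SBPASE gave 1468, 3228 and 2530 in wild type and 13986, 6471 and 6019 in cop1-4. The groups did not overlap, and again the replicate 1 arrays were the extremes on both sides. The means were 2409 ± 886.3 and 8825 ± 4475 (SD, n = 3), and the fitted log2 change was 1.82 (SE 0.42, limma adjusted p = 0.0148). Without wild type replicate 1 the log2 change was 1.51 and the adjusted p 0.0504.

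PRK followed another course. Its signals were 3914, 5016 and 4105 in wild type and 18201, 4520 and 4163 in cop1-4. The cop1-4 replicate 1 array was 4.19 times the mean of the other cop1-4 arrays, which lay inside the wild-type range. The log2 change over all arrays was 0.69 (SE 0.56, 95% interval −0.57 to 1.96, limma adjusted p = 0.386), and without cop1-4 replicate 1 it was 0.01.

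**Figure D1:**
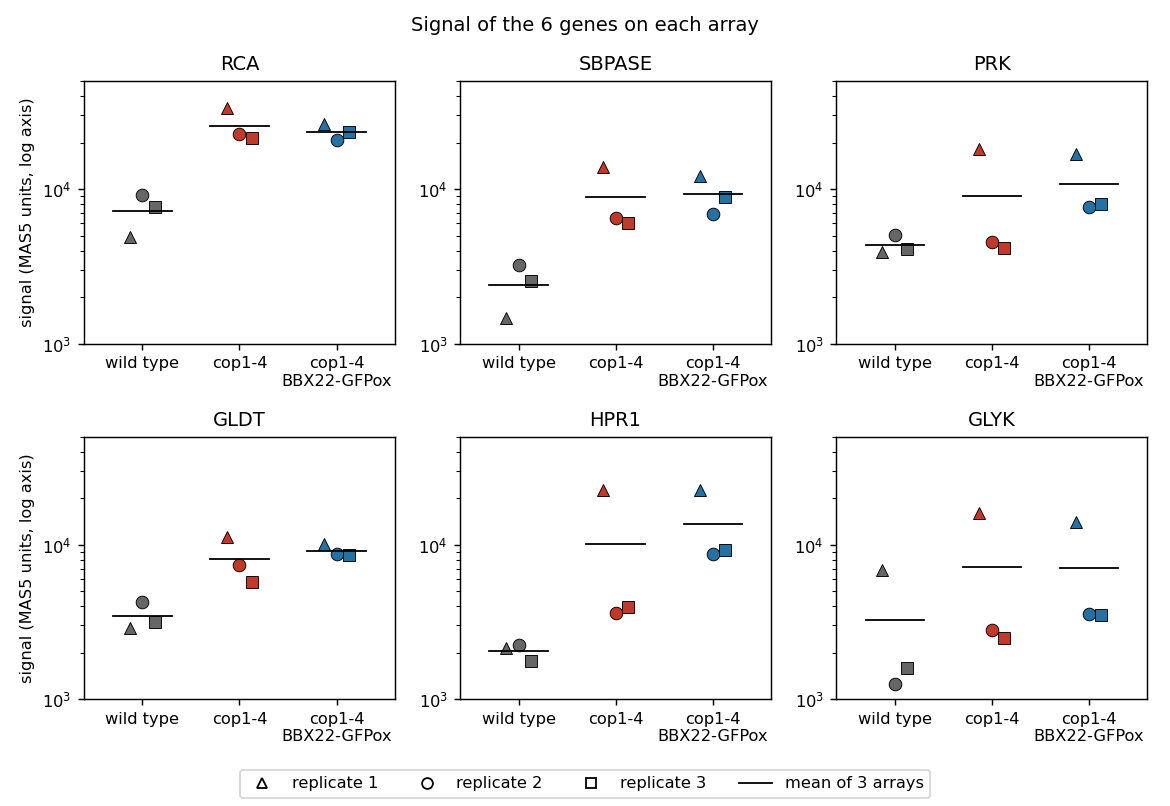
Signal of the 6 genes on each of the 9 arrays, on a log axis, with 1 panel per gene, 1 column per genotype, symbols for the replicate number and a bar at the mean of 3 arrays. RCA, SBPASE and GLDT step up from wild type to both cop1-4 lines, while for PRK and HPR1 the replicate 1 arrays of the cop1-4 lines (triangles) and for GLYK those of all 3 genotypes lie far above the other arrays.

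Among the photorespiratory genes GLDT rose. It had signals of 2895, 4257 and 3160 in wild type and 11116, 7354 and 5720 in cop1-4, with no overlap between the groups. The means were 3437 ± 722.0 and 8063 ± 2767 (SD, n = 3; log2 change 1.19, SE 0.28, limma adjusted p = 0.0173). The call was lost without wild type replicate 1 (adjusted p = 0.0582), wild type replicate 3 (0.0616) or cop1-4 replicate 2 (0.0505).

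HPR1 gave 2146, 2234 and 1754 in wild type, the narrowest wild-type spread of the 6 genes relative to its mean (12.5%). In cop1-4 it gave 22701, 3594 and 3971, so that the replicate 1 array was 6.0 times the mean of the other arrays. All 3 cop1-4 arrays nevertheless lay above all wild-type arrays. The log2 change of 1.75 had an SE of 0.68 and did not pass (limma adjusted p = 0.0900), and passed with the replicate number as a block (adjusted p = 0.0131).

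GLYK differed from the others in that its replicate 1 array was high in the wild type as well. The wild-type signals were 6895, 1262 and 1594 and the cop1-4 signals 16119, 2815 and 2485, so the groups overlapped. Within each replicate number cop1-4 was the higher, by log2 differences of 1.22, 1.14 and 0.63. The log2 change of 1.00 (SE 0.91) was not called over all arrays (limma adjusted p = 0.447), and it was with the replicate block (adjusted p = 0.00460).

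Together, 3 of the 6 genes rose in cop1-4 and 0 fell, where 11.3% of all 15922 tested probe sets were raised and 14.5% lowered. With the replicate block 5 of 6 rose, where 19.9% of all probe sets did, and PRK alone was not called (adjusted p = 0.197). In replicates 2 and 3 alone the same count of 5 was raised, where 28.7% of all were. The 3 cop1-4 arrays lay above the 3 wild-type arrays for 4 of the 6 genes, and for 19.2% of all tested probe sets. The median log2 change of the 6 genes was 1.47, beside −0.11 over all probe sets tested. Scaling the arrays to a common median moved the median of all by about 0.12 to 0.01 and the calls over all probe sets from 1795 raised and 2305 lowered to 2294 and 1733. The 3 genes kept their calls under that scaling. RCA, SBPASE, HPR1 and GLDT lay at the 97.3, 97.2, 96.7 and 90.1 percentiles of all tested log2 changes, GLYK at 86.9 and PRK at 80.5.

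**Figure D2:**
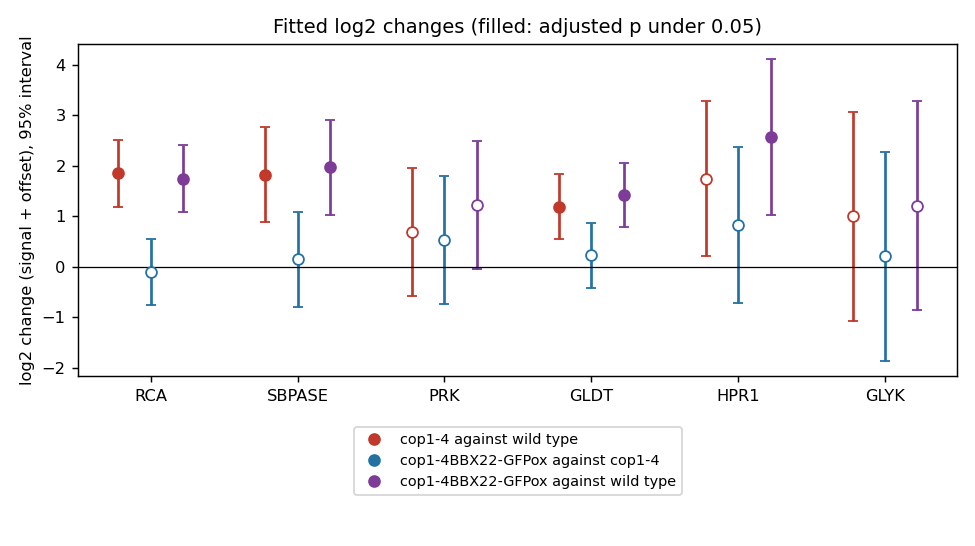
Fitted log2 changes of the 6 genes in the 3 genotype comparisons with 95% intervals from limma, filled where the adjusted p was under 0.05. The intervals of RCA and GLDT are the narrowest and those of GLYK the widest, reaching from −1.07 to 3.07 for cop1-4 against wild type.

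Differences between arrays of the same number showed how much of each change lay in replicate 1, given here as folds on the log2(signal + 24.5) scale. For HPR1 the cop1-4 array exceeded the wild-type array 10.5-fold in replicate 1, and the difference over replicates 2 and 3 was 1.90-fold. SBPASE went from 9.39-fold to 2.17-fold, RCA from 6.82-fold to 2.62-fold and GLDT from 3.82-fold to 1.76-fold. PRK went from 4.63-fold to 0.956-fold. GLYK, at 2.33-fold and 1.85-fold, changed least between the replicates. The median log2 difference of the 6 genes was 2.49 in replicate 1 and 0.91 in replicates 2 and 3, beside −0.13 and −0.08 over all probe sets tested. Replicate 1 has 1 array per genotype, so its differences carry no test. In replicates 2 and 3 alone, with 2 arrays per genotype behind each p-value, the log2 changes that passed ran from 0.82 for GLDT (SE 0.16, limma adjusted p = 0.000598) to 1.39 for RCA (SE 0.14, adjusted p = 1.68e-06). The PRK value there was −0.06 (SE 0.14, adjusted p = 0.700).

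**Figure D3:**
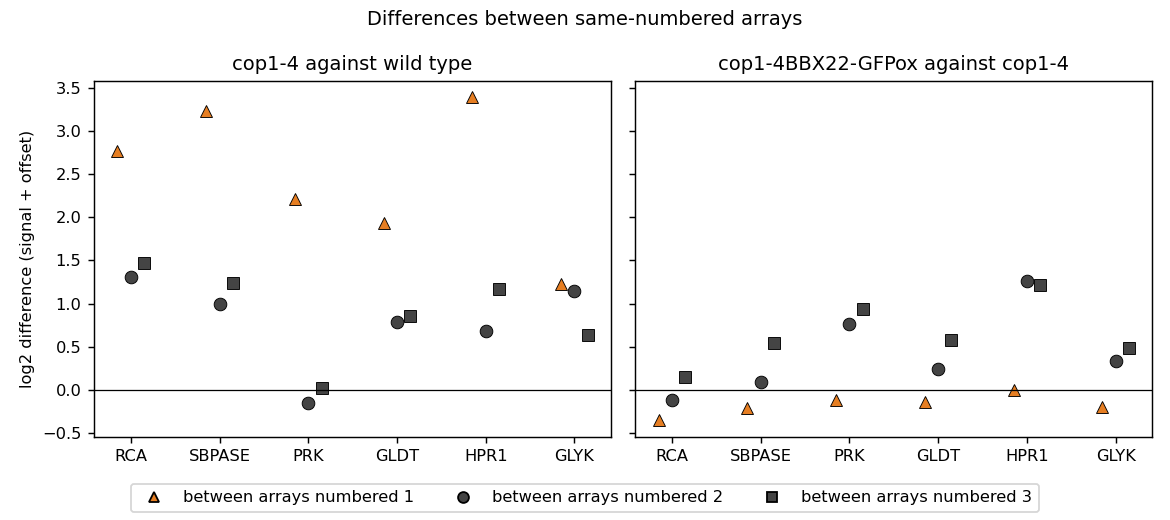
Log2 differences between arrays with the same replicate number, for cop1-4 against wild type (left) and cop1-4BBX22-GFPox against cop1-4 (right), with replicate 1 in orange. On the left the replicate 1 differences exceed the others for all 6 genes, least for GLYK, and on the right they lie at or below 0 while replicates 2 and 3 of PRK and HPR1 lie between 0.76 and 1.26.

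The comparison of cop1-4BBX22-GFPox with cop1-4 asks what the construct adds to a seedling with reduced COP1 function. None of the 6 genes was called over all arrays (0 of 6, with 0 at an unadjusted limma p under 0.05), where 0.301% of all probe sets were called in either direction. Of all 15922 probe sets 1194 had an unadjusted limma p under 0.05. The count of called genes was also 0 with the replicate block, where 1.29% of all were called. For all 6 genes the arrays of both lines overlapped, while 6.37% of all probe sets lay wholly higher with the construct and 4.99% wholly lower. RCA had 26180, 20919 and 23540 with the construct, inside or just below the cop1-4 range, and a log2 change of −0.11 (95% interval −0.77 to 0.55). SBPASE had 12121, 6903 and 8817 (log2 change 0.15, interval −0.80 to 1.09) and GLDT had 10087, 8727 and 8585 (0.23, interval −0.41 to 0.87). These intervals exclude a further doubling for RCA and GLDT and not for SBPASE. For PRK, HPR1 and GLYK the intervals were wider, and reached 1.79, 2.36 and 2.27.

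HPR1 and PRK differed between replicate 1 and the other arrays in this comparison. HPR1 had 22651, 8638 and 9251 with the construct. On the same scale this was 0.998-fold the cop1-4 signal in replicate 1, and in replicates 2 and 3 it was 2.36-fold higher. PRK had 16832, 7687 and 7988 with the construct, 0.925-fold the cop1-4 signal in replicate 1 and 1.80-fold in replicates 2 and 3. Fitted to replicates 2 and 3 alone, HPR1 rose by a log2 of 1.24 (SE 0.14, limma adjusted p = 2.48e-05) and PRK by 0.85 (SE 0.14, adjusted p = 0.000450). Thus 2 of 6 genes were raised in that fit, where 12.7% of all probe sets were. GLYK had 14018, 3554 and 3492, and in the same fit a log2 change of 0.41 (SE 0.14, adjusted p = 0.0503). RCA (0.02, SE 0.14), SBPASE (0.32, SE 0.16) and GLDT (0.42, SE 0.16) were not called there either. Leaving out the cop1-4 replicate 1 array alone moved the log2 change of HPR1 from 0.82 to 1.68 and that of PRK from 0.53 to 1.22, neither of them called.

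Against wild type, cop1-4BBX22-GFPox raised 4 of the 6 genes, RCA, SBPASE, GLDT and HPR1, where 9.80% of all probe sets were raised. This comparison shares its wild-type arrays with that of cop1-4. The log2 changes were 1.74 for RCA (SE 0.29, limma adjusted p = 0.00463), 1.97 for SBPASE (SE 0.42, adjusted p = 0.0119) and 1.42 for GLDT (SE 0.28, adjusted p = 0.00956), beside 1.85, 1.82 and 1.19 for cop1-4. These 3 kept their calls when any 1 array was left out. HPR1, from 2044 ± 255.5 to 13513 ± 7920 (SD, n = 3), had a log2 change of 2.57 (SE 0.68, adjusted p = 0.0283), beside 1.75 for cop1-4. Its call was lost without any 1 array of the wild type or of cop1-4BBX22-GFPox, with adjusted p-values of 0.0558 to 0.0899. PRK lay above all wild-type arrays in this line, as did 5 of the 6 genes and 19.2% of all probe sets, but its log2 change of 1.22 did not pass (adjusted p = 0.151). GLYK stood at 1.21 (adjusted p = 0.374). With the replicate block all 6 rose, where 18.9% of all probe sets did, with adjusted p-values of 0.0429 for PRK and 0.00241 for GLYK. In replicates 2 and 3 alone all 6 rose too, where 27.5% of all probe sets did. PRK was also called without cop1-4 replicate 1 (adjusted p = 0.0204), an array that enters this comparison only through the shared estimate of the spread.

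The order of the genotypes by mean signal was wild type, cop1-4, cop1-4BBX22-GFPox for SBPASE, PRK, GLDT and HPR1. For RCA (23546 ± 2630.5 with the construct, SD, n = 3) and GLYK (7021 ± 6059, beside 7140 ± 7778 in cop1-4) the cop1-4 mean was the highest. Without the replicate 1 arrays the order changed for PRK, RCA and GLYK. The PRK means of replicates 2 and 3 were 4561, 4342 and 7838 in wild type, cop1-4 and cop1-4BBX22-GFPox. In the same order they were 8381, 21943 and 22230 for RCA, and 1428, 2650 and 3523 for GLYK. In none of the 6 did the neighbouring levels of cop1-4 and cop1-4BBX22-GFPox differ beyond their spread over all arrays. The spread itself differed between genes and genotypes: the SD in cop1-4 was 25.8% of the mean for RCA and 34.3% for GLDT, but 89.3% for PRK, 108% for HPR1 and 109% for GLYK. With the construct the same quantity was 11.2% for RCA and 9.08% for GLDT. For PRK and HPR1 it was 47.9% and 58.6%.

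Splitting the sum of squares of the log2 signals over the 9 arrays separated the genes further. Genotype held 89.9% of the variation of RCA, 83.9% of GLDT and 79.2% of SBPASE, and the replicate number at most 4.96%. The rest held 10.0%, 11.1% and 19.0%. Shifts of replicate 1 that differ in direction between genotypes fall in this rest. Against the mean log2 of replicates 2 and 3, replicate 1 of RCA stood at −0.77 in wild type and 0.61 in cop1-4. For SBPASE these values were −0.95 and 1.16, and for GLDT −0.34 and 0.78. For HPR1 genotype held 64.4% and the replicate number 22.5%, and for PRK 37.7% and 32.7%. GLYK was the opposite of RCA, with 19.0% for genotype and 79.5% for replicate number. Over all tested probe sets the medians were 47.2% and 26.1%. These shares are descriptions of 9 arrays and carry no test.

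**Figure D4:**
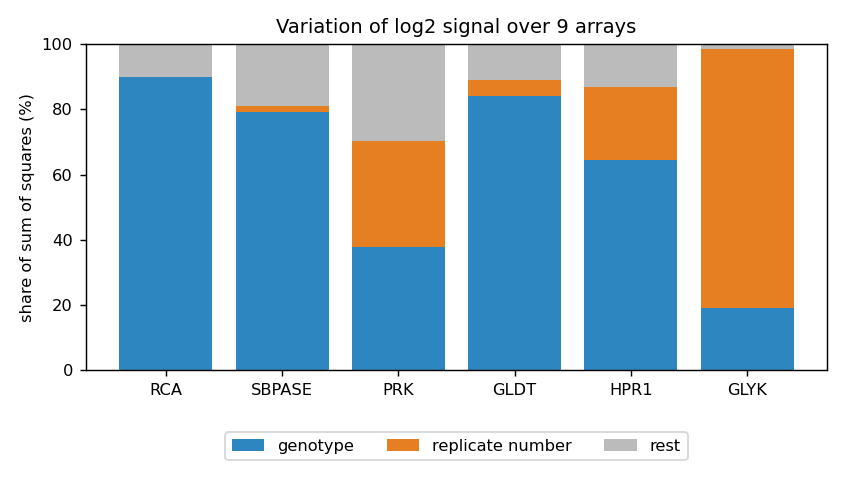
Share of the sum of squares of log2 signal over 9 arrays that lay between genotypes, between replicate numbers and in the rest, stacked for each gene. Genotype (blue) fills most of the bars of RCA, SBPASE and GLDT, and replicate number (orange) most of the GLYK bar.

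Over the 9 arrays, which share genotypes and replicate numbers, likeness of profile did not follow the pathway boundary. RCA and SBPASE correlated at a Pearson r of 0.978 and SBPASE and GLDT at 0.974, a photorespiratory gene with a gene of the Calvin cycle. PRK was most like HPR1 (0.954). GLYK was least like RCA (0.422), and its closest gene was PRK (0.785). With GLDT, of its own pathway, its r was 0.547. Among 8659 other probe sets with 1 gene, the 5 whose profiles were on average most like those of the 6 genes were AT5G17670 (mean r 0.906), AT2G26340 (0.904), AT1G22430 (0.903), AT1G27480 (0.903) and PSB27 (AT1G03600, 0.902), an assembly factor of photosystem II. AT1G22430 reached an r of 0.995 with 1 of the 6 genes, above the highest r of any pair among the 6 (0.978). Likeness of this size was therefore not particular to the 6 genes. PSB27 averaged a signal of 3526 over the wild-type arrays, 10737 over those of cop1-4 and 13924 over those with the construct. Its replicate 1 signals of 19106 and 20341 in the cop1-4 lines were above those means, as for the 6 genes. PSB27 was picked for its likeness to them over these arrays, so sharing their pattern is no separate result.

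Wider lists of the pathways put the 6 genes in context. Of 25 Calvin cycle loci 4 had a probe set with 1 gene, the 3 members and AT1G56190, and of 32 photorespiration loci 8 had one. In cop1-4 against wild type 6 of these 12 rose and 0 fell, 3 of them besides the members, where 11.3% of all probe sets were raised and 14.5% lowered. The median log2 change of the 12 was 1.03, and that of the 6 loci that are not members was 0.47. In replicates 2 and 3 the median of these non-members was 0.37. With the replicate block 8 of the 12 rose, where 19.9% of all did, the added ones being HPR1 and GLYK. AT1G32470 of the photorespiration list had 1953, 3265 and 3555 in wild type and 18416, 9192 and 6937 in cop1-4. Its groups did not overlap, and it rose by a log2 of 1.89 (limma adjusted p = 0.0153, and 0.0546 without wild type replicate 1). LrgB (AT1G32080), which encodes the chloroplast glycolate and glycerate transporter and lies 1 protein-coding gene away from PRK, rose by 0.90 (adjusted p = 0.0282). That call was lost without wild type replicate 1 (0.0907), wild type replicate 3 (0.0925) or cop1-4 replicate 2 (0.0657). AT1G56190 rose by 1.06 (adjusted p = 0.0492), and this call was lost whichever array was left out (adjusted p of 0.0510 to 0.140). Without wild type replicate 1 the count over the 12 loci was 1, where 1040 of all 15922 probe sets were raised. Without wild type replicate 3 or cop1-4 replicate 2 the count was 3, where 1035 and 973 probe sets were raised. With all arrays 1795 were raised.

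The remaining 3 measured loci of the photorespiration list, AT2G35120, AT1G79870 and AT4G22840, had log2 changes of 0.05, −0.09 and −0.36 and were not called (adjusted p of 0.40 to 0.949). On the replicate 1 array of each genotype these 3 stood at 0.379 to 0.905 of the mean of the other arrays, and GLYK at 3.98 to 6.08 times that mean. In cop1-4BBX22-GFPox against cop1-4 none of the 12 was called (0, with 0 at an unadjusted limma p under 0.05), where 0.301% of all probe sets were. The unadjusted p was under 0.05 for 1194 of all 15922 probe sets. AT1G56190 had 1944, 1603 and 1809 with the construct, below its 2726, 3204 and 2717 in cop1-4 on every array (log2 change −0.68, adjusted p = 0.771). In replicates 2 and 3 alone 3 of the 12 were raised and 1 lowered, where 12.7% of all probe sets were raised and 11.5% lowered. AT1G56190 was the lowered one (log2 change −0.78, limma adjusted p = 0.000734), and AT2G35120 was raised (0.47, adjusted p = 0.0139) beside PRK and HPR1. Against wild type, cop1-4BBX22-GFPox raised 5 of the 12 and lowered 0, where 9.80% of all probe sets were raised and 1866 of 15922 lowered. Among them AT1G32470 (log2 change 1.64, adjusted p = 0.0282) was the 1 that is not a member, and its call was lost without any wild-type array and without cop1-4BBX22-GFPox replicate 1 or 3 (adjusted p of 0.0583 to 0.0941). The replicate block gave 8 raised loci and 1 lowered, where 18.9% of all probe sets were raised and 21.8% lowered. The lowered locus was AT4G22840, with 124.4, 155.3 and 170.9 in wild type and 47.6, 91.6 and 83.6 with the construct. These signals were low, within or below the range of the array medians (147.2 to 189.4). The log2 change of AT4G22840, −0.84, had a limma adjusted p of 0.0749 without the block and 0.0126 with it. LrgB, at 0.71, also passed with the block (adjusted p = 0.0342) and not without it (0.0707).

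Of 12 loci of cytosolic carbon metabolism 2 were measured. GAPC2 (AT1G13440), a cytosolic glyceraldehyde-3-phosphate dehydrogenase, rose by 0.70 in cop1-4 (adjusted p = 0.0398), but lost that call when any array other than replicate 1 of the cop1-4 lines was dropped (adjusted p of 0.0619 to 0.131). TPI (AT3G55440), a cytosolic triose phosphate isomerase, stood at 0.61 (adjusted p = 0.254, and 0.0332 with the block).

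**Figure D5:**
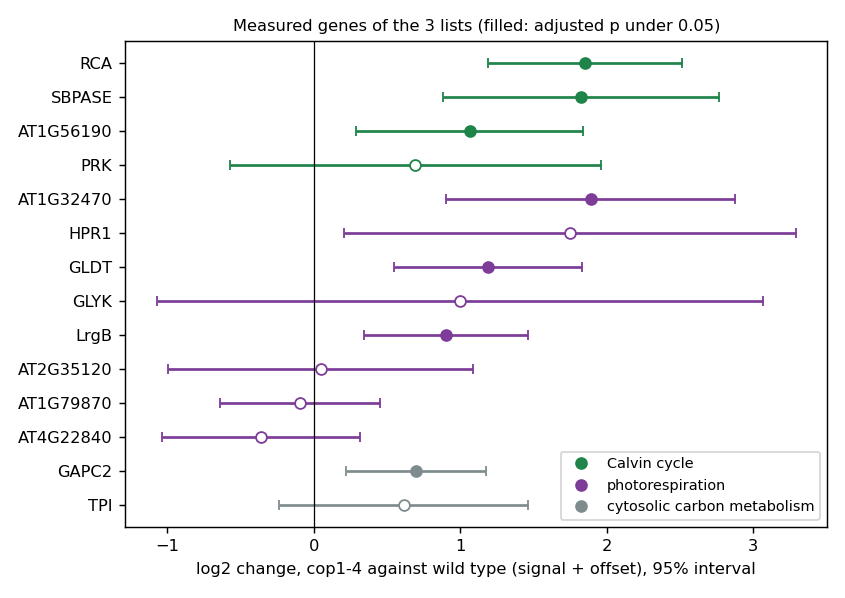
Log2 change with 95% interval for cop1-4 against wild type of the 14 measured loci in the lists of Calvin cycle (green), photorespiration (purple) and cytosolic carbon metabolism (grey), filled where the adjusted p was under 0.05. RCA, SBPASE and AT1G32470 lie near 1.8 to 1.9, and 3 photorespiration loci lie near or below 0.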

How the data were processed

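Biotin-labelled RNA of 9 samples was hybridised to 1-colour Affymetrix arrays. The deposited values are linear probe set intensities. The submitters' processing notes name MAS5, with neither version nor scaling target in the sources used here. A platform annotation named the genes, and a TAIR10.1 gene table supplied locus codes and gene order. An offset of 24.5, which is the table's 20th percentile, was added before taking log2, and probe sets at or above the 30th percentile of mean log2 were kept (15922). Log2 changes are on this scale. Limma 3.58.1 in R 4.3.3 (lmFit with 1 mean per genotype over 9 arrays, eBayes with trend) tested each comparison two-sided with Benjamini-Hochberg adjustment over all probe sets kept, and calls are adjusted p-values under 0.05. The fit was tested on data simulated with independent noise on each array. These had no shift shared by replicate number, so the test does not cover that of replicate 1. Percent of calls over all probe sets is given as background.

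The members, lists, tests and alternatives were chosen with earlier results of these data known, among them that replicate 1 stood apart. Named genes are the 6 members, the called genes of the lists and, by likeness of profile, 5 further probe sets. Alternatives changed the offset, scaling, filter, array weights, replicate block and samples in the fit. Same-numbered samples of different genotypes deviated together in all 9 pairs (r of deviations from genotype means 0.375 to 0.806). Replicates 2 and 3 of different genotypes also did so where their numbers differed (r of 0.337 to 0.739). The positive r of same-numbered samples therefore does not show that they were paired. Only 4 of 9 arrays deviated most like the same-numbered array in each of the other genotypes. The main fit did not pair the arrays. Arrays sharing a number were treated as paired only in the replicate block and in the differences between same-numbered arrays. The labels call the replicates biological and give no batch, so p-values reflect only how far these samples spread, which may be technical. The number of arrays limits the precision.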

Additional observations from a re-analysis of the deposited data

How the results depend on the processing

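Of 342 log2 changes of the 6 genes under 19 alternatives per comparison, 305 kept direction and side of the threshold, 17 were newly called, 10 lost their call and 10 changed sign, none of those called. The number of the 6 genes called in cop1-4 against wild type went from 3 to 5 with the replicate block or in replicates 2 and 3 alone, and was 1 to 3 with 1 array left out. For cop1-4BBX22-GFPox against cop1-4 it went from 0 to 2 (PRK and HPR1) with array weights or in replicates 2 and 3 alone, and was 0 whichever array was left out. Between cop1-4BBX22-GFPox and wild type it went from 4 to 6 with the block, with array weights or in replicates 2 and 3 alone, and was 3 to 5 when 1 array was left out. Over all probe sets cop1-4 against wild type gave 4100 calls, 9776 with array weights, 7096 with the block, 9932 in replicates 2 and 3 alone and 2214 to 5641 with 1 array left out. cop1-4BBX22-GFPox against cop1-4 gave 48, and in the same order 3510, 206, 3856 and 11 to 372, with 27 under the filter at the 50th percentile and 14 with the compared genotypes only. cop1-4BBX22-GFPox against wild type gave 3427, and 9389, 6479, 9590 and 1819 to 4820. The cause of these shifts was not tested. Besides the calls given above, the block changed no call of the 6 genes.

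Signs turned as follows. For cop1-4 against wild type PRK was −0.017 with array weights and −0.065 in replicates 2 and 3 alone. For cop1-4BBX22-GFPox against cop1-4 RCA was 0.017 in replicates 2 and 3 alone. With 1 array left out RCA ran from −0.23 to 0.096 (the positive value without cop1-4 replicate 1), SBPASE from −0.074 to 0.53 and GLYK from −0.46 to 1.07. SBPASE and GLYK were below 0 without cop1-4 replicate 2, cop1-4 replicate 3 or cop1-4BBX22-GFPox replicate 1. AT1G32470 ran from −0.55 to 0.16, above 0 without cop1-4 replicate 1 or cop1-4BBX22-GFPox replicate 2. For cop1-4BBX22-GFPox against wild type AT1G56190 was −0.00033 with array weights, −0.11 in replicates 2 and 3 alone, and −0.046 (without wild type replicate 1) to 0.60 with 1 array left out. The cause was not tested.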
